A study of Mus musculus with 10 samples.

Results

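A cassette exon is an internal exon that one mature transcript of a gene carries and another skips, splicing the flanking exons directly together. When its length is a multiple of 3 bases, both forms keep the downstream reading frame, so that the choice adds or removes a short stretch of protein without otherwise altering it. The exons described here were built from the RefSeq transcripts listed in the short-read transcript files of mature CD8 single-positive (CD8SP) and CD4 single-positive (CD4SP) mouse thymocytes. An event needed an annotated transcript with introns A and B on either side of the exon and an annotated transcript with 1 intron spanning both. Of 2157 such events, 1403 kept the frame. Members were the events whose inclusion and skipping forms together reached at least 1 FPKM (fragments per kilobase of transcript, scaled to the fragments mapped in the library) in both files. This gave 678 frame-keeping events on 671 exons of 554 genes, among 1006 annotated cassette exon events at the same minimum. The remaining 328 events shifted the frame. Members were therefore selected on the measured summed FPKM, so their expression is a condition of entry and not a result.

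CD8SP cells were sorted as CD8+CD4-TCRβ+CD24- after depletion of CD4-expressing cells, and CD4SP cells as CD4+CD8-TCRβ+CD24- after depletion of CD8-expressing cells. Both came from C57BL/6 mice of 6 to 8 weeks, untreated as far as the labels say, with 2 to 3 thymi pooled per sample. The series had 10 samples: 8 short-read samples that are 4 sequencing lanes per lineage, and 2 long-read libraries, 1 per lineage. The short reads gave 1 transcript file per lineage, which gives no value per lane and no replicate, so differences below carry no test, and they compare these 2 preparations rather than the lineages across mice. Depth is unknown, because the files give FPKM and no counts.

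The labelled lineages were checked against marker genes. Cd8a was at 241 FPKM in CD8SP and 10.9 FPKM in CD4SP, and Cd4 at 1.69 FPKM in CD8SP and 107 FPKM in CD4SP, while Cd3e was at 170 FPKM in both. Cd3g was at 307 FPKM in CD8SP and 199 FPKM in CD4SP, and Cd3d at 114 FPKM in CD8SP and 73.6 FPKM in CD4SP. Immature thymocyte genes were present in both files: 3 of 5 listed genes reached 1 FPKM in each, with a sum of 26.0 FPKM in CD8SP and 39.2 FPKM in CD4SP. Cd24a, whose product the gate selected against, was at 10.1 FPKM in CD8SP and 11.8 FPKM in CD4SP. The 5 myeloid genes summed to 0.732 FPKM in CD8SP and 2.62 FPKM in CD4SP, and the 4 B cell genes to 5.51 FPKM in CD8SP and 0.679 FPKM in CD4SP, nearly all of it Cd79b with Cd79a at 0 in both. Erythroid genes summed to 3.48 FPKM in CD8SP and 5.68 FPKM in CD4SP, and epithelial and endothelial genes to 15.8 FPKM in CD8SP and 23.6 FPKM in CD4SP, led by Pecam1. The part of other cells in the splicing values was not tested. In such bulk RNA, a shift of splicing within each cell and a different mix of cells cannot be told apart.

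Frame-keeping cassette exons commonly encode surface loops, linkers and binding motifs, and the shortest of them, microexons, are best known from neurons. Splicing regulators such as the Mbnl, Celf, Rbfox, Ptbp and hnRNP proteins set their inclusion by binding near the exon. In T cells, alternative exons of this kind are known in the phosphatase CD45, in kinases and adaptors of antigen receptor signalling, and in lymphoid transcription factors. Thymocytes that mature from double-positive cells take either the helper (CD4) or the cytotoxic (CD8) path, and the series asked where splicing differs between them.

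The percent spliced in (PSI) of an exon is the share of the summed FPKM carried by transcripts of the inclusion form. It was taken over all stranded multi-exon transcripts with either form, whether or not they are in RefSeq. It rests on Cufflinks' division of reads among whole transcripts, not on reads across the exon's own junctions. A difference is CD8SP minus CD4SP in percentage points, and an exon was called when the difference was at least 20 points in size. Bounds of a PSI came from the deposited FPKM intervals and cover the estimate within 1 file, not variation between mice.

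Sequences of 9 coding exons are shown because their calls were kept under 7 alternative settings (set out with the calls). Each is written 5′ to 3′ on the strand of the gene, from the GENCODE M21 transcripts of the GRCm38 mouse genome. Capitals mark the cassette exon, and lower case marks 12 bases of the neighbouring exon on each side, which are joined directly when the exon is skipped.
Ptprs exon of 12 bases, chr17:56421833-56421844, minus strand: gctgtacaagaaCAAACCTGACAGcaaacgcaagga
Synrg exon of 36 bases, chr11:84039656-84039691, plus strand: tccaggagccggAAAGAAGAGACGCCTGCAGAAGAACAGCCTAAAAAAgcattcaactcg
Phc1 exon of 156 bases, chr6:122332522-122332677, minus strand: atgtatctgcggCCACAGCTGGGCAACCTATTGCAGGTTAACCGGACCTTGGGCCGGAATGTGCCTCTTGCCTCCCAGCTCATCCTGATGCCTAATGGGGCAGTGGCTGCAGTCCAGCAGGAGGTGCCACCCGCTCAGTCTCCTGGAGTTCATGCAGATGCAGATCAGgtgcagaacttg
Rad18 exon of 78 bases, chr6:112664096-112664173, minus strand: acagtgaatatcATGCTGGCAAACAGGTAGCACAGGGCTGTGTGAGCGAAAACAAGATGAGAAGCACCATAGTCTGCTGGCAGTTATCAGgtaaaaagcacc
Phtf1 exon of 159 bases, chr3:103982946-103983104, plus strand: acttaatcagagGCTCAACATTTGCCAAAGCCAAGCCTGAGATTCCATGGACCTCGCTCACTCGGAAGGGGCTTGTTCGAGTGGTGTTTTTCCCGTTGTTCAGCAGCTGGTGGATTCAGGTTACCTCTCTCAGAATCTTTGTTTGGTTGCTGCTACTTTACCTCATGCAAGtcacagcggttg
Mlx exon of 90 bases, chr11:101088236-101088325, plus strand: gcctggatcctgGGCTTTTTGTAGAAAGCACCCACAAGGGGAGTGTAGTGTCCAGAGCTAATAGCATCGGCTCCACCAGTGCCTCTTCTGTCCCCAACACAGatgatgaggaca
Myo9b exon of 48 bases, chr8:71358616-71358663, plus strand: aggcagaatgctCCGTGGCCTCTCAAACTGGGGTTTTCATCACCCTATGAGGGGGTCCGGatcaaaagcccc
Map3k7 exon of 81 bases, chr4:31994874-31994954, plus strand: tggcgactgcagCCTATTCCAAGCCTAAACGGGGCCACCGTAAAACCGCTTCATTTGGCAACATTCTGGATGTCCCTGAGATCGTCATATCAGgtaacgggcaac
Arfgap2 exon of 42 bases, chr2:91269070-91269111, plus strand: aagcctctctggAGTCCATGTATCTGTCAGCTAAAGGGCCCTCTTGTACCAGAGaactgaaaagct
The first 6 had the higher PSI in CD8SP and the last 3 in CD4SP. A second set is shown to set beside them exons that were not called, from genes of membrane traffic, signalling, splicing and transcription. It runs from 9 to 84 bases, against 12 to 159 bases in the first set, so the sets are not matched in size.
Map4k4 exon of 9 bases, chr1:40008331-40008339, plus strand: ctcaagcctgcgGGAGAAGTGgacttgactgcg
Dnm2 exon of 12 bases, chr9:21490658-21490669, plus strand: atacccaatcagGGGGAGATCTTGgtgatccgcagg
Anxa6 exon of 18 bases, chr11:54987051-54987068, minus strand: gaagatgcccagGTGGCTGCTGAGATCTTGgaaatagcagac
Picalm exon of 24 bases, chr7:90194273-90194296, plus strand: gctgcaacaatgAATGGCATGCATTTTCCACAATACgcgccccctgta
Mbnl1 exon of 54 bases, chr3:60614683-60614736, plus strand: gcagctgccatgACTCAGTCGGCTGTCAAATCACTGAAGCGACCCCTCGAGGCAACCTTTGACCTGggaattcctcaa
Clta exon of 54 bases, chr4:44030215-44030268, plus strand: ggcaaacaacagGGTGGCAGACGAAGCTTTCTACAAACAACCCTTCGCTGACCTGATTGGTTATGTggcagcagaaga
Ptprc exon of 72 bases, chr1:138116954-138117025, minus strand: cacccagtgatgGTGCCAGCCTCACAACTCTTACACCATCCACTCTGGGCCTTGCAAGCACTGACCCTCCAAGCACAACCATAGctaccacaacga
Traf3 exon of 75 bases, chr12:111251130-111251204, plus strand: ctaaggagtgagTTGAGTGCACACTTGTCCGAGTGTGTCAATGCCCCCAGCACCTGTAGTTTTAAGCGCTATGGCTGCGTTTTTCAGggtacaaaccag
Lef1 exon of 84 bases, chr3:131191023-131191106, plus strand: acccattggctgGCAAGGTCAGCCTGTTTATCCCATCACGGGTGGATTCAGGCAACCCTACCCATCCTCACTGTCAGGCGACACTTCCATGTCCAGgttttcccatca

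For most of these exons PSI was close in both lineages. It was within 5 points for 309 of the 678 events (45.6%) and within 10 points for 449 (66.2%), with a median difference of 6.03 points in size and an upper quartile of 13.2 points. Pearson's correlation of PSI between the files was 0.912 across the 678 events, a description over exons whose transcripts were quantified in the same 2 files. The median PSI was 44.8% in CD8SP and 41.0% in CD4SP. Most exons were neither always used nor always skipped, with 88 events (13%) at 90% or more in both files and 139 (20.5%) at 10% or less in both. Between these, 34 events (5.01%) lay between 40% and 60% in both.

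Of the 678 frame-keeping events, 96 were called, which is 14.2%, beside 162 of all 1006 annotated cassette events (16.1%) and 66 of the 328 frame-shifting events (20.1%). CD8SP had the higher PSI in 55 of the 96 (8.11% of the 678, against 8.85% of all 1006) and CD4SP in 41 (6.05%, against 7.26%). Which lineage had more calls depended on the setting, with 50 calls for CD8SP and 55 for CD4SP when inclusion was taken from either intron beside the exon, 19 for CD8SP and 25 for CD4SP at a threshold of 30 points, and 33 for each with 0.5 FPKM added to each form. Among frame-shifting events, 34 were higher in CD8SP (10.4%) and 32 in CD4SP (9.76%). The median size of the difference was 7.09 points in frame-shifting events, and their PSI correlated at 0.867. Among coding exons with both forms above 0 in both files, 13.3% of frame-keeping and 13.9% of frame-shifting events were called. These shares stand side by side without a test. Bounds from the deposited intervals were separate for 94 of the 96 calls (13.9% of the 678, against 15.6% of all 1006). The calls fell in 93 genes, 3 of which, Fnbp1, Map4k4 and Synrg, had more than 1, and in 37 of the 96 the more abundant form differed between the files.

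**Figure D1:**
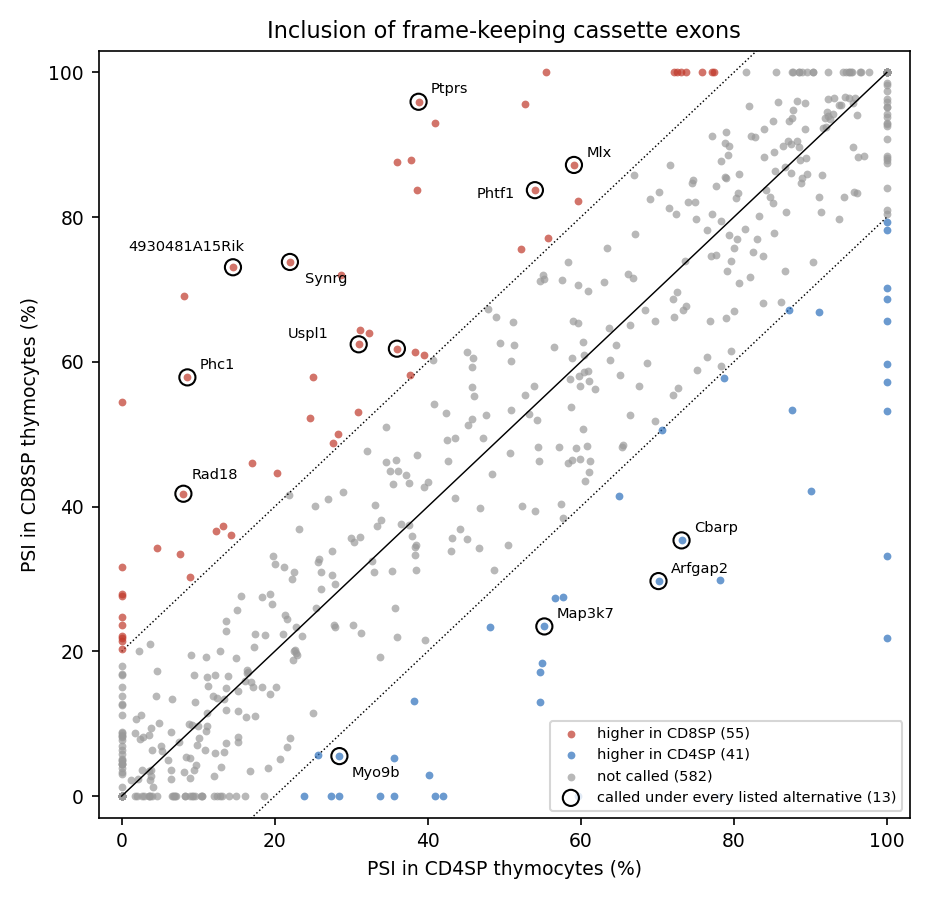
PSI of each of the 678 frame-keeping cassette exon events in CD8SP (vertical axis, %) against CD4SP (horizontal axis, %). Dotted lines mark 20 points either side of equality. Red points are the 55 events called higher in CD8SP and blue points the 41 called higher in CD4SP. Circles mark the 13 calls kept under 7 other settings. Most points follow the diagonal.

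Transcript level moved with the share of calls. The events were ranked by the lower of their summed FPKM in the 2 files and divided into 4 groups of like size. In the lowest group (1.01 to 2.97 FPKM) 44 of 170 events were called (25.9%), in the second (2.97 to 5.68 FPKM) 25 of 169 (14.8%), in the third (5.72 to 11.92 FPKM) 18 of 169 (10.7%), and in the highest (12 to 232 FPKM) 9 of 170 (5.29%). The median lower summed FPKM was 3.27 for exons called higher in CD8SP and 3.23 for those called higher in CD4SP, against 6.47 for exons not called. The part of estimation error in this was not tested. The calls of the highest group, named after their values were seen, included Arhgef1, Bin1, Creb1 and Arhgap1 with higher PSI in CD8SP and Ablim1, Sars, U2surp and Luc7l2 with higher PSI in CD4SP.

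**Figure D2:**
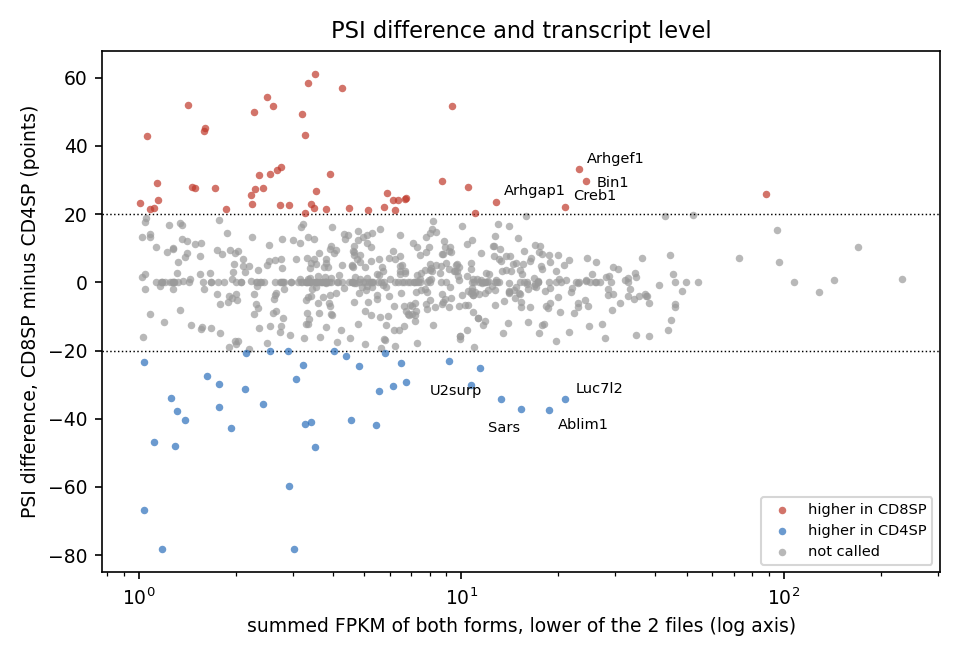
PSI difference of each event (CD8SP minus CD4SP, points) against the summed FPKM of both forms in the file where it is lower (log axis). Red and blue points are called higher in CD8SP and in CD4SP, dotted lines mark 20 points, and 8 called exons of the highest level group are labelled. The spread narrows with level.

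A form listed at 0 FPKM may be absent or may be a failed estimate. Either form stood at 0 in at least 1 file for 251 events, of which 37 were called (14.7%), against 59 of the 427 events with both forms above 0 in both files (13.8%). The inclusion form was at 0 in both files for 69 events and the skipping form at 0 in both for 47, which accounts for the 116 events with no difference at all.

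Because each PSI depends on which transcripts are counted, every call was checked under 7 other settings. PSI was recomputed with 0.5 FPKM added to each form and with RefSeq transcripts alone. It was also recomputed without transcripts whose FPKM lies outside its own interval, and with inclusion taken from either intron beside the exon. The other settings left PSI as it was. Requiring separate bounds and leaving out events with a form at 0 only filtered the calls. Dropping the FPKM minimum could lose no call. The call was kept in all 7 for 13 of the 96 events, 9 higher in CD8SP and 4 in CD4SP. With RefSeq transcripts alone, 77 of 593 events were called (13%), of which 41 were also among the 96 and 39 had the same direction. Counting either intron gave 105 calls with 62 shared. The 13 exons were identified after their values were seen.

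Synrg encodes synergin gamma, a partner of the AP-1 clathrin adaptor at the trans-Golgi network. Its exon of 36 bases, at codon phase 0, was at 6.92 FPKM with the exon and 2.45 FPKM without it in CD8SP, against 2.26 FPKM with it and 8.02 FPKM without it in CD4SP. The major form therefore differed, with a PSI of 73.8% in CD8SP and 22.0% in CD4SP. A larger exon of Synrg, of 234 bases, was also higher in CD8SP, with a PSI of 36.6% in CD8SP and 12.3% in CD4SP. That second call was lost when inclusion was taken from either intron (12.3 points).

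Ptprs, a receptor tyrosine phosphatase gene, had an exon of 12 bases with a PSI of 95.9% in CD8SP (4.34 FPKM with, 0.183 FPKM without) and 38.8% in CD4SP (1.65 FPKM with, 2.61 FPKM without). Phc1, a subunit gene of Polycomb repressive complex 1, had an exon of 156 bases with a PSI of 57.9% in CD8SP (1.88 FPKM with, 1.37 FPKM without) and 8.60% in CD4SP (0.275 FPKM with, 2.93 FPKM without). The CD4SP inclusion form of Phc1 was thus near the bottom of the scale. Mlx encodes the basic helix-loop-helix partner of the glucose-sensing Mondo factors, and its exon of 90 bases had a PSI of 87.2% in CD8SP (11.3 FPKM with, 1.66 FPKM without) and 59.1% in CD4SP (6.21 FPKM with, 4.29 FPKM without). Phtf1 had an exon of 159 bases with a PSI of 83.7% in CD8SP and 54.0% in CD4SP. Rad18, a ubiquitin ligase gene of post-replication DNA repair, had an exon of 78 bases at 41.8% in CD8SP and 8.07% in CD4SP, whereas another Rad18 exon, of 63 bases, was at 39.4% in CD8SP and 54.1% in CD4SP and was not called. Of the 9 held calls with higher PSI in CD8SP, 2 were outside coding sequence. They were a 5′ untranslated exon of the SUMO protease gene Uspl1 (62.4% in CD8SP, 31.0% in CD4SP) and an exon of the non-coding transcript 4930481A15Rik (73.1% in CD8SP, 14.6% in CD4SP).

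In the other direction, Map3k7 encodes TAK1, a kinase that links antigen and cytokine receptors to NF-κB and the stress kinases. Its exon of 81 bases, exon 12 of 17 in Map3k7-201, was at 1.3 FPKM with and 4.25 FPKM without the exon in CD8SP, a PSI of 23.4% (bounds 20.2 to 26.8%), against 3.15 FPKM with and 2.55 FPKM without it in CD4SP, a PSI of 55.2% (bounds 51.2 to 59.3%). Arfgap2, a GTPase-activating protein gene for the Golgi GTPase Arf1, had an exon of 42 bases at 29.7% in CD8SP (1.35 FPKM with, 3.20 FPKM without) and 70.2% in CD4SP (3.23 FPKM with, 1.38 FPKM without). Both genes thus used the form with the exon more in CD4SP and the form without it more in CD8SP. Myo9b, a myosin that carries a GTPase-activating domain, had an exon of 48 bases at 5.53% in CD8SP (0.693 FPKM with, 11.8 FPKM without) and 28.5% in CD4SP (2.61 FPKM with, 6.56 FPKM without). Cbarp had a non-coding transcript exon of 54 bases at 35.3% in CD8SP and 73.2% in CD4SP, from summed levels near the minimum in both files.

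**Figure D3:**
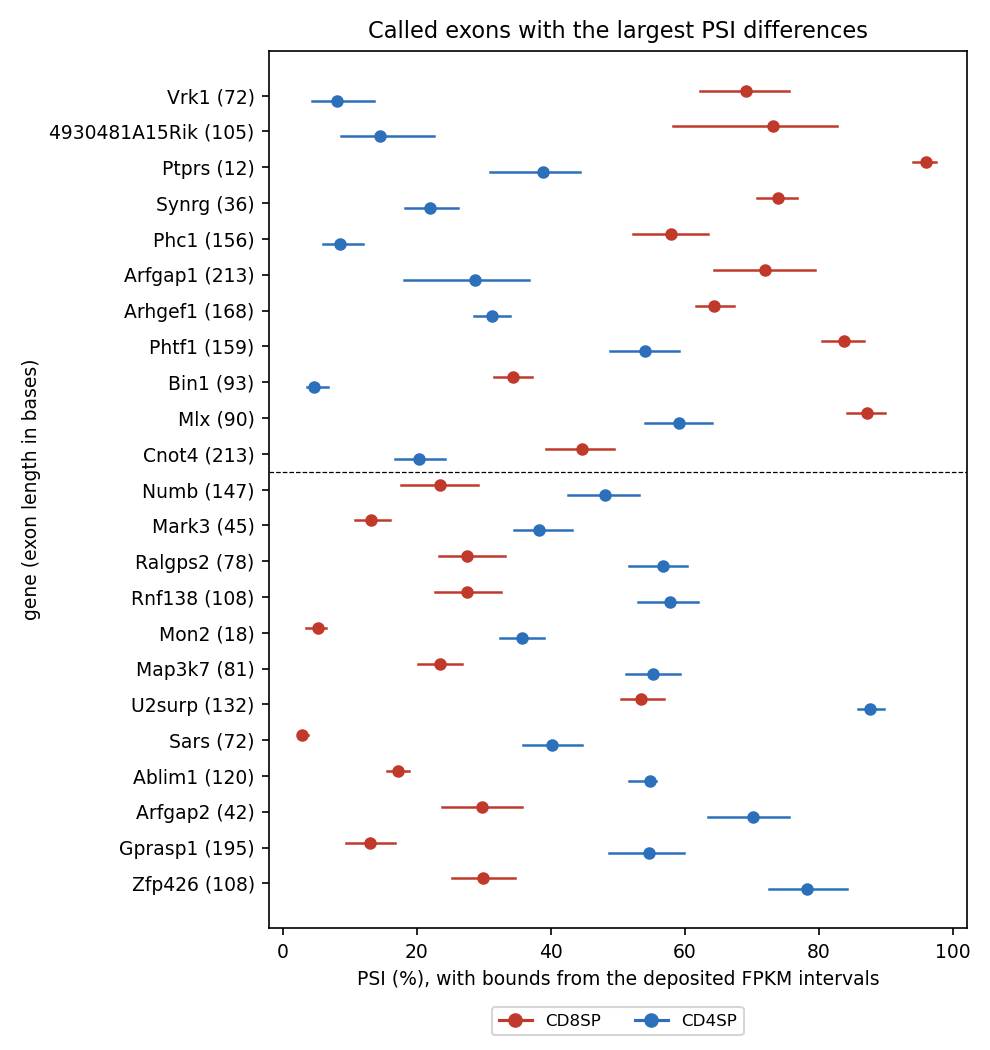
PSI (%) of 23 called exons, out of the 12 per direction with the largest differences among those with both forms above 0, a summed FPKM of at least 3 and separate bounds in both files. Red points are CD8SP and blue points CD4SP, lines are bounds from the deposited FPKM intervals and not replicate error, and exon length in bases follows each gene; above the dashed line CD8SP is higher, below it CD4SP.

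A set of 24 exons, 12 in each direction, had the largest differences among calls with both forms above 0, at least 3 summed FPKM and separate bounds. Of these 24, 9 were among the 13 that held, of which CD8SP was higher in 7 and CD4SP in 2. Forms above 0 and separate bounds were also among the 7 settings, so this overlap was partly set by the selection. The other exons of the 24 depended on the transcripts counted. Vrk1, a nuclear kinase gene, had the largest difference in favour of CD8SP, with an exon of 72 bases at 69.1% in CD8SP (2.43 FPKM with, 1.09 FPKM without) and 8.10% in CD4SP (0.314 FPKM with, 3.56 FPKM without). With RefSeq transcripts alone its difference was -38.4 points, so its direction is not settled. Arhgef1 encodes a guanine nucleotide exchange factor that acts downstream of G protein-coupled receptors in lymphocytes. Its exon of 168 bases was at 64.4% in CD8SP (14.9 FPKM with, 8.25 FPKM without) and 31.2% in CD4SP (7.91 FPKM with, 17.4 FPKM without), and the call was lost when inclusion was taken from either intron (18.7 points). Bin1, a membrane-bending protein gene, had exon 7 of Bin1-201 at 34.3% in CD8SP (10.6 FPKM with, 20.3 FPKM without) and 4.64% in CD4SP (1.14 FPKM with, 23.3 FPKM without). RefSeq transcripts alone gave no difference in Bin1. Cnot4, a ubiquitin ligase gene tied to the CCR4-NOT deadenylase complex, had an exon of 213 bases at 44.7% in CD8SP and 20.3% in CD4SP, and Arfgap1 a 5′ untranslated exon at 71.9% in CD8SP and 28.7% in CD4SP. Both calls were lost with either intron, at 0.714 points for Cnot4 and 10.3 points for Arfgap1, and RefSeq transcripts alone gave 18.3 points for Cnot4.

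Among the 12 with higher PSI in CD4SP, Ablim1 (an actin-binding LIM protein) was at 17.2% in CD8SP (3.22 FPKM with, 15.5 FPKM without) and 54.7% in CD4SP (29.0 FPKM with, 24.0 FPKM without). Sars, the cytosolic seryl-tRNA synthetase, was at 2.95% in CD8SP (0.607 FPKM with, 20.02 FPKM without) and 40.2% in CD4SP (6.17 FPKM with, 9.18 FPKM without). U2surp, a component of the U2 small nuclear ribonucleoprotein, was at 53.4% in CD8SP (10.02 FPKM with, 8.74 FPKM without) and 87.6% in CD4SP (11.6 FPKM with, 1.64 FPKM without). With RefSeq transcripts alone the signs of all 3 turned, to 40.2 points for Ablim1, 22.2 for Sars and 2.17 for U2surp. Zfp426 and Rnf138, 29.9% and 27.5% in CD8SP against 78.2% and 57.7% in CD4SP, also turned under that setting, to 29.9 and 5.24 points. Taking inclusion from either intron ended the calls of Ablim1 (-19.3 points) and Rnf138 (-17.9 points). Ralgps2, a Ral exchange factor gene at 27.4% in CD8SP and 56.7% in CD4SP, turned to 6.42 points with RefSeq transcripts alone. Mon2, a gene of Golgi and endosome traffic, had an exon of 18 bases at 5.23% in CD8SP (0.455 FPKM with, 8.23 FPKM without) and 35.6% in CD4SP (2.19 FPKM with, 3.96 FPKM without). Ralgps2 and Mon2 turned when transcripts outside their own interval were left out, to 43.3 and 39.1 points. Numb, an endocytic adaptor that antagonises Notch, had the exon of 147 bases that lengthens its proline-rich region at 23.4% in CD8SP and 48.1% in CD4SP, with -18.9 points for RefSeq alone. Mark3, a kinase of microtubule and polarity control, was at 13.2% in CD8SP and 38.2% in CD4SP, and Gprasp1, a receptor-sorting protein gene, at 13.02% in CD8SP and 54.6% in CD4SP in its 5′ untranslated region. Taking inclusion from either intron ended both calls, at -15.1 points for Mark3 and -10.9 points for Gprasp1, and RefSeq transcripts alone left -0.53 points for Mark3 and none for Mon2.

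**Figure D4:**
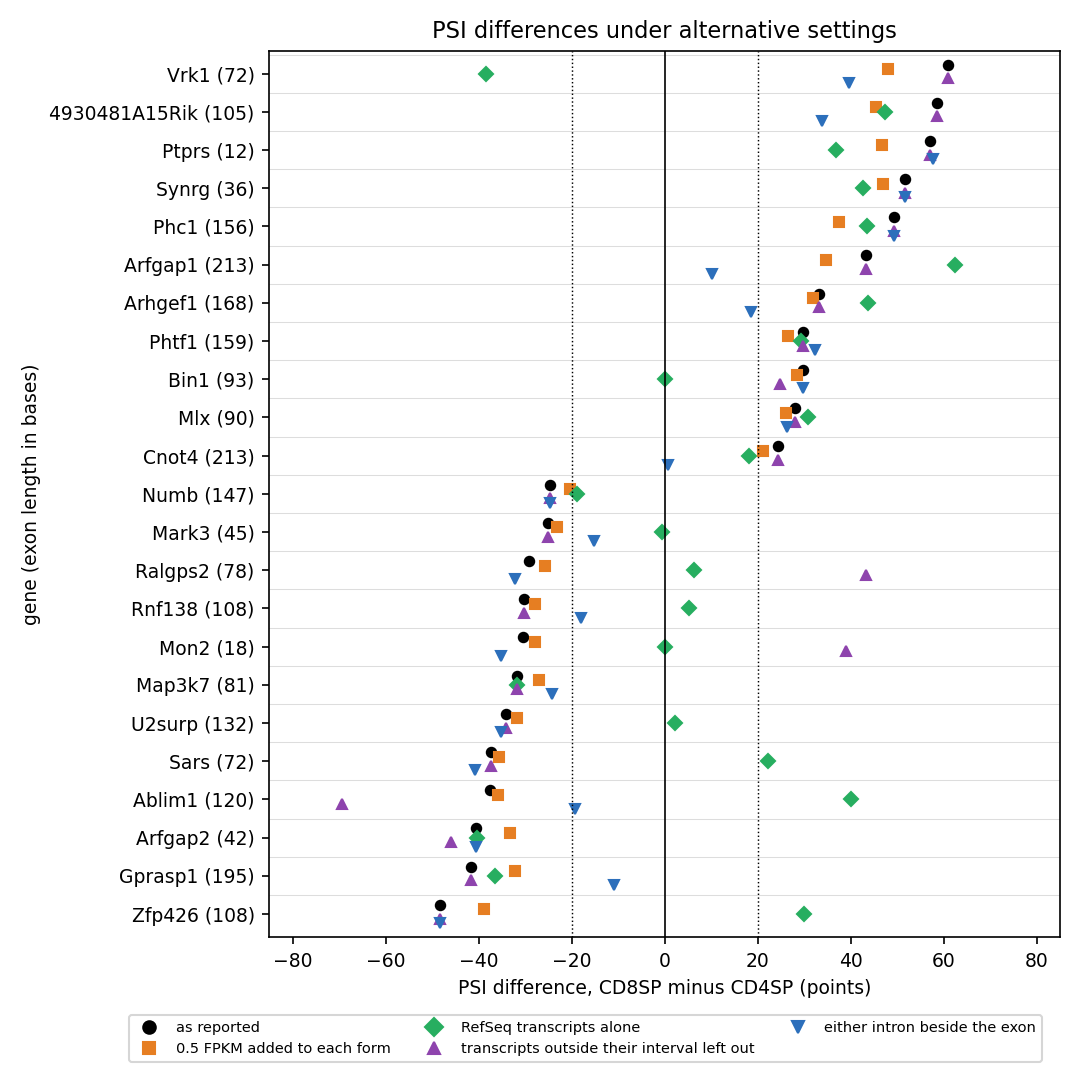
PSI difference (CD8SP minus CD4SP, points) of the same 23 exons as reported (black) and under 4 other ways of computing PSI. Dotted lines mark the 20 points of a call; 8 exons, such as Synrg, Mlx and Map3k7, keep every marker beyond the line on 1 side, whereas the green diamonds of Vrk1, Ablim1, Sars and Zfp426 (RefSeq transcripts alone) lie beyond it on the opposite side.

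Median inclusion differed by exon length in both files. The exons ran from 6 to 2976 bases, with a median of 90 bases and quartiles of 54 and 132, against a median of 100.5 bases for frame-shifting exons. Median PSI was 4.11% in CD8SP and 4.63% in CD4SP for the 58 microexons, taken as exons of at most 27 bases. It was 24.1% in CD8SP and 25.9% in CD4SP for the 144 exons of 28 to 60 bases, and 49.5% in CD8SP and 50.8% in CD4SP for the 281 of 61 to 120 bases. It was 64.9% in CD8SP and 66.3% in CD4SP for the 136 of 121 to 200 bases, and 48.2% in CD8SP and 37.7% in CD4SP for the 59 that were longer. Over all events, inclusion was thus lowest for the shortest exons and highest at 121 to 200 bases. With events that have a form at 0 left out, 26 microexons remained, with medians of 34.5% in CD8SP and 31.7% in CD4SP. Exons of 28 to 60 bases were then at 35.3% in CD8SP and 39.6% in CD4SP. In CD4SP the highest class was then 61 to 120 bases, at 53.4% against 52.7% for 121 to 200 bases. Leaving out events with a form at 0 removes every exon at 0%, so a rise of the microexon medians was largely built in. Microexons still had the lowest medians of all length classes. The same held with a minimum of 5 FPKM, at 6.35% in CD8SP and 9.19% in CD4SP. There, exons of 28 to 60 bases were at 19.7% in CD8SP and 22.2% in CD4SP. It also held with 0.5 FPKM added to each form, at 14.9% in CD8SP and 14.6% in CD4SP for microexons. The part of failed estimates in the low medians was not tested.

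The direction of the calls also varied with length. Of the 59 exons over 200 bases, 9 were called higher in CD8SP and 1 in CD4SP. They include exons of Phf21a, Prrc2b, Pigv and Dclre1c, all named after their values were seen, and the CD4SP exception was Fam118b. Among the 144 exons of 28 to 60 bases, 8 were called higher in CD8SP and 15 in CD4SP. Taking inclusion from either intron gave 4 in CD8SP and 3 in CD4SP for the long exons, and RefSeq transcripts alone gave 7 in CD8SP and 8 in CD4SP for the short ones, so neither split held throughout. The median length was 105 bases for exons called higher in CD8SP and 75 bases for those called higher in CD4SP, against 90 bases for exons not called.

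**Figure D5:**
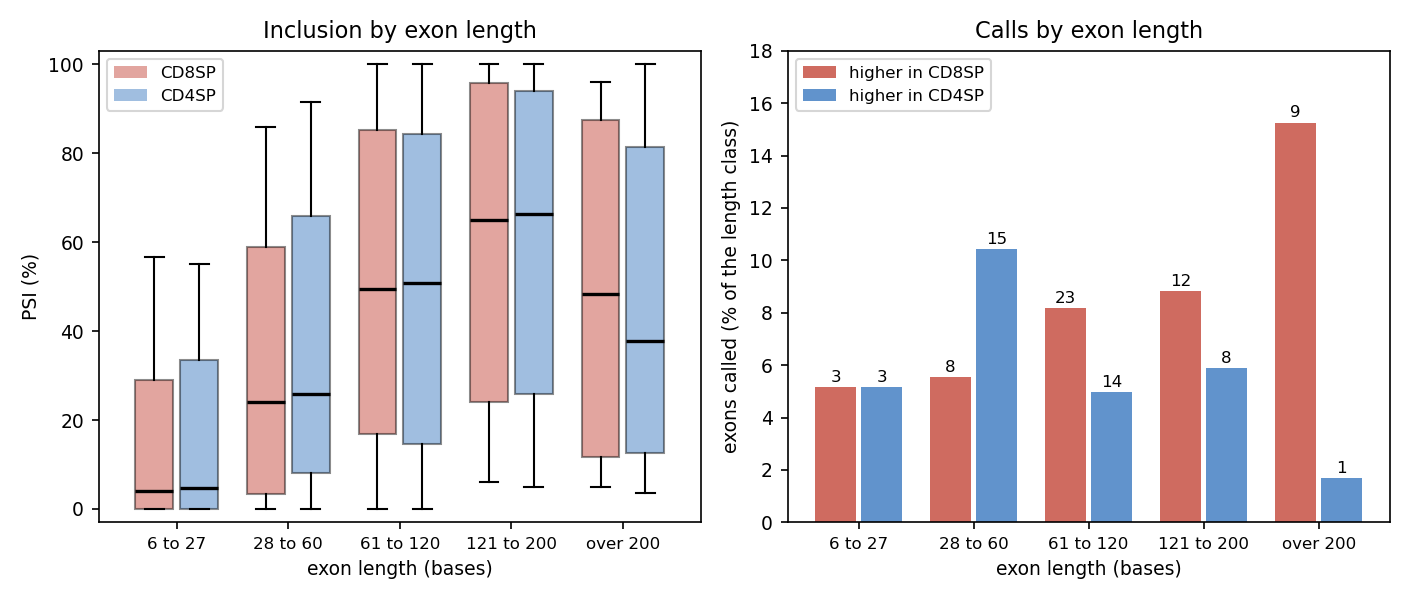
Left, PSI (%) by exon length in bases, CD8SP in red and CD4SP in blue: line, median; box, quartiles; whiskers, 10% and 90% points over the events of a class. Right, share of each class called higher in CD8SP (red) and in CD4SP (blue), with the number of events above each bar; the class over 200 bases has 9 and 1.

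Microexons made up 8.55% of the frame-keeping events (58 of 678), and only 4 of the 328 frame-shifting exons were as short. Of the 58, 27 were at or below 10% in both files, 15 of them at 0 in both, and 8 were at or above 50% in both. Those at 0 included exons of 15 bases in Abi1 (actin regulation), 21 bases in Eif4g1 (translation initiation) and 24 bases in Rapgef6 (a Rap exchange factor), each from genes whose skipping form exceeded 20 FPKM in both files. The well-included ones were led by Dnm2, Map4k4 and Anxa6. Dnm2, the dynamin that cuts endocytic vesicles, had an exon of 12 bases at 85.5% in CD8SP (31.4 FPKM with, 5.34 FPKM without) and 79.0% in CD4SP (17.1 FPKM with, 4.53 FPKM without). Map4k4, a Ste20-family kinase, had an exon of 9 bases at 65.7% in CD8SP and 69.7% in CD4SP. Anxa6, a membrane-binding annexin, had an exon of 18 bases at 53.4% in CD8SP and 50.9% in CD4SP. Fip1l1, a factor of mRNA 3′ end formation, had a pair of exons that mirrored each other, with nearly the same 2 FPKM values on opposite sides of the ratio: the exon of 27 bases was at 74.0% in CD8SP and 73.7% in CD4SP, and that of 108 bases at 26.0% in CD8SP and 25.4% in CD4SP. Of the 58 microexons, 6 were called (10.3%), 3 in each direction. Ptprs, Fnbp1 (27.9% in CD8SP, 0% in CD4SP) and Synj1 (20.4% in CD8SP, 0% in CD4SP) were higher in CD8SP, and Mon2, Nkapd1 (0% in CD8SP, 35.6% in CD4SP) and Stx16 (0% in CD8SP, 78.1% in CD4SP) were higher in CD4SP. A second event of the same Stx16 exon with other neighbours had a PSI of 19.5% in CD8SP and 9.04% in CD4SP, so that gene's exon had no single direction.

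GENCODE placed 566 of the 678 exons (83.5%) within coding sequence, 50 (7.37%) in the 5′ untranslated region, 29 across a start or stop codon, 26 in non-coding transcripts and 7 in no transcript of the release. Of the 328 frame-shifting exons, 132 (40.2%) were coding and 104 (31.7%) 5′ untranslated. Coding frame-keeping exons were called in 73 of 566 cases (12.9%), 42 higher in CD8SP and 31 in CD4SP. Those of the 5′ untranslated region were called in 15 of 50 cases (30%), 9 higher in CD8SP and 6 in CD4SP. Their median lower summed FPKM was 3.76, against 5.97 for coding exons, and with a minimum of 5 FPKM 1 of 18 was called (5.56%). Frame has no meaning for translation in exons outside coding sequence, so the rule there selects by length alone. Coding frame-keeping exons with both forms above 0 were called in 48 of 360 cases (13.3%), beside 11 of 79 (13.9%) of the frame-shifting ones. Over all coding frame-shifting exons 23 of 132 were called (17.4%), and over those of the 5′ untranslated region 27 of 104 (26.0%).

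Among the 566 coding exons, 256 (45.2%) began at the first base of a codon, 221 (39.0%) after 1 base of a codon and 89 (15.7%) after 2 bases. The shares were 38.6%, 37.1% and 24.2% for coding exons that shift the frame. In 5 of the 566 an in-frame stop codon lay within the exon or at its junctions, in Gon4l, Kansl1l, Ppm1b, Spag9 and Trmt2a. Of these only Ppm1b, a protein phosphatase gene, was called, at 33.2% in CD8SP and 100% in CD4SP from 1.04 summed FPKM in CD4SP. Median GC content was 51.1%, against 49.1% in frame-shifting exons. At the 3′ end 80.5% of the exons had G as the last base and 58.1% had AG as the last pair of bases, and 38.3% had G as their first base. Frame-shifting exons had 81.6%, 62.3% and 46.5% for these features. In the upstream exons that these exons join, 83.9% had G as the last base and 57.8% AG as the last pair. Intron sequence, with its splice sites and regulator motifs, was not analysed here.

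By function, 5 lists were set beside the members. RNA-binding and splicing genes comprised 40 events in 33 genes, of which 3 (7.5%) were called, all higher in CD4SP: U2surp, Luc7l2 and R3hdm2. Luc7l2, a component linked to the U1 small nuclear ribonucleoprotein, was at 65.7% in CD8SP (15.2 FPKM with, 7.92 FPKM without) and 100% in CD4SP (21 FPKM with, 0 FPKM without), and that call was lost when transcripts outside their interval were left out. R3hdm2 was at 66.9% in CD8SP and 91.2% in CD4SP, with no difference for RefSeq transcripts alone. RefSeq alone gave 2 calls higher in CD8SP and 3 in CD4SP for this list. The median difference of the list was -0.65 points. All lists had been written with results of these data known, and their shares are read against the 14.2% of all 678 events.

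Cytoskeleton and adhesion genes had 71 events in 42 genes, of which 11 (15.5%) were called, with CD8SP higher in 6 and CD4SP higher in 5. The median difference was 0 points. Their exons were the least included of the lists, with a median PSI of 13.4% in CD8SP and 9.49% in CD4SP. Ablim1, Arhgef1, Bin1 and Mark3 had the highest levels among the called. Membrane trafficking genes had 50 events in 35 genes, of which 9 (18%) were called, 3 higher in CD8SP and 6 in CD4SP. That split became 6 for CD8SP and 5 for CD4SP without transcripts outside their interval, and 8 for CD8SP and 6 for CD4SP with no FPKM minimum. They hold both Synrg exons and Arfgap1 in the first direction, and Arfgap2, Mon2, Numb, Ralgps2, Stx16 and Dennd4c in the second. Picalm, a clathrin assembly protein gene of the same pathway, was at 55.5% in CD8SP and 52.7% in CD4SP for its exon of 150 bases, and at 3.84% in CD8SP and 19.2% in CD4SP for its exon of 24 bases, without a call for either. Without transcripts outside their interval the Picalm differences were 47.3 and 80.8 points, so they too depend on the transcripts counted.

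T cell receptor and immune signalling genes had 31 events in 23 genes with 4 calls (12.9%), 2 in each direction. No call higher in CD8SP was left with RefSeq transcripts alone (1 call), with either intron (2 calls) or with 1 event per exon (2 calls). Besides Map3k7, the CD4SP direction held Irak1, a kinase of Toll-like and interleukin-1 receptor signalling, whose exon of 117 bases was listed at 0 FPKM in CD8SP beside 9.45 FPKM of the skipping form. In CD4SP it had 1.55 FPKM with and 4.95 FPKM without the exon, a PSI of 23.8%, and RefSeq transcripts alone gave no difference. Both calls in the CD8SP direction belonged to Map4k4, where events on the same exons differed by their neighbours. The exons of 162 and 231 bases, when each was measured on transcripts that lack the other, were at 6.14% and 10.9% in CD8SP and 13.4% and 16.2% in CD4SP. Measured on transcripts that carry the other, they were at 48.8% and 64.0% in CD8SP and 27.7% and 32.3% in CD4SP. These 4 events share transcripts with each other, and the transcript with both exons was at 2.51 FPKM in CD8SP and 1.87 FPKM in CD4SP.

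Transcription and chromatin genes had 62 events in 51 genes with 7 calls (11.3%), 6 higher in CD8SP and 1 in CD4SP, a median difference of 3.62 points and a median PSI of 70.1% in CD8SP and 59.98% in CD4SP. The split was 6 and 6 without transcripts outside their interval and 4 and 3 with either intron. Creb1 encodes the cyclic AMP response factor, and its exon of 42 bases distinguishes the alpha form from the delta form. It was at 53.0% in CD8SP (13.1 FPKM with, 11.6 FPKM without) and 30.8% in CD4SP (6.46 FPKM with, 14.5 FPKM without). Gtf2ird1 was at 50.1% in CD8SP and 28.2% in CD4SP, and turned to -13.3 points with RefSeq transcripts alone and was no longer called with 0.5 FPKM added (17.6 points). The only call in the CD4SP direction was Eya3, with a 5′ untranslated exon at 0% in CD8SP and 41.9% in CD4SP that had no difference with RefSeq transcripts alone.

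Exons of genes named for known T cell or lymphoid splicing were for the most part not called. The same holds for frame-keeping events at large, of which 96 of 678 were called (14.2%). The lack of calls therefore does not set these genes apart, and their share was not tested against the rest. Ptprc encodes CD45. Its exon of 72 bases was at 185 FPKM with and 47.9 FPKM without in CD8SP, against 182 FPKM with and 50.3 FPKM without in CD4SP. The 2 PSI values, 79.5% in CD8SP and 78.4% in CD4SP, lie 1.10 points apart. Use of the variable exons of CD45 that mark T cell states is not read from this event. Lef1 encodes a high mobility group factor of early T cells whose exon 6 is known from human T cells to respond to Celf2, and it was at 96.5% in CD8SP and 95.9% in CD4SP. Celf2 itself had an exon of 144 bases at 85.6% in CD8SP and 78.8% in CD4SP. Traf3 and Map2k7 carry exons known in human T cells to be skipped on activation. That of Traf3 was at 100% in CD8SP and 97.7% in CD4SP, and that of Map2k7 at 48.1% in CD8SP and 59.4% in CD4SP. Tcf12, an E protein gene, was at 69.6% in CD8SP and 72.6% in CD4SP. Clta, a clathrin light chain gene, listed its exon of 54 bases at 0 in both, beside a skipping form at 96.2 FPKM in CD8SP and 54.4 FPKM in CD4SP.

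Mbnl1 is a splicing regulator that also splices its own transcripts, and its exon of 54 bases, known to favour nuclear location of the protein, was at 3.67% in CD8SP (5.66 FPKM with, 148 FPKM without) and 6.41% in CD4SP (8.26 FPKM with, 121 FPKM without). Its exon of 36 bases, measured only between its own neighbouring exons, was at 67.3% in CD8SP and 47.9% in CD4SP, just under a call. With inclusion taken from either intron the difference was 2.12 points. Ikzf1, the founding Ikaros factor gene, had an exon of 261 bases at 73.8% in CD8SP (70.2 FPKM with, 24.97 FPKM without) and 58.3% in CD4SP (62.3 FPKM with, 44.5 FPKM without). That difference, 15.4 points, was 41.0 points with RefSeq transcripts alone and -58.3 points without transcripts outside their interval, so no direction is read from it. Ets1 had an exon of 261 bases, which belongs to the autoinhibitory region of this factor, at 89.8% in CD8SP (153 FPKM with, 17.4 FPKM without) and 79.4% in CD4SP (207 FPKM with, 53.7 FPKM without). Cd6, a T cell surface receptor, was at 79.7% in CD8SP and 93.8% in CD4SP (3.66 points with RefSeq transcripts alone), and the exon of 69 bases of the calmodulin kinase Camk2g at 48.4% in CD8SP and 60.8% in CD4SP.

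Exons used near evenly in both files were led by Hnrnpa2b1, an RNA-binding protein gene, at 49.5% in CD8SP (54.5 FPKM with, 55.7 FPKM without) and 43.6% in CD4SP (42.2 FPKM with, 54.7 FPKM without). Bcl11b, a factor of T lineage commitment, had its exon of 216 bases at 44.5% in CD8SP (16.6 FPKM with, 20.8 FPKM without) and 48.4% in CD4SP (28.2 FPKM with, 30.1 FPKM without), and RefSeq transcripts alone gave -53.5 points. Pum2, a translational repressor, was at 46.3% in CD8SP and 54.5% in CD4SP, and Wnk1, a kinase of ion transport, at 40.1% in CD8SP and 52.4% in CD4SP. With RefSeq transcripts alone these turned to 19.2 points for Pum2 and 1.74 points for Wnk1. Both forms of each gene were thus present in both files in amounts of the same order.

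The long-read libraries, which read single transcripts from end to end, bore on few of these exons. Multi-exon isoforms matching an annotated transcript at every junction numbered 527 in CD8SP and 397 in CD4SP, and they held either form of 17 events in CD8SP and 13 in CD4SP, 8 of them in both. In CD8SP, events with long reads of the inclusion form alone (4) had a median short-read PSI of 81.9%, those with both forms (4) 45.4% and those with the skipping form alone (9) 8.73%. In CD4SP the values were 47.9% over 3 events, 48.4% over 5 and 1.70% over 5. Bcl11b, Ppp2r5c and Kars had long-read isoforms of both forms in both libraries. Ppp2r5c, a regulatory subunit gene of protein phosphatase 2A, had most: 4 isoforms with and 4 without its exon of 117 bases in CD8SP, and 4 with and 6 without in CD4SP. Its short-read PSI was 46.4% in CD8SP and 35.9% in CD4SP. For Ptprc 1 isoform of each form was found in CD4SP. Only 2 called events, Fnbp1 (exon of 153 bases) and Nfya, had any such isoform, in each case of the skipping form.

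The 2 events nearest to the limit of 1 summed FPKM on each side are given as examples. Whether the events show a break at that limit was not examined. Just above it lay Zfp444 (75.6% in CD8SP and 52.2% in CD4SP, at 1.39 and 1.01 summed FPKM; a call that was lost with 0.5 FPKM added, at 13.7 points) and Mdm1 (82.5% in CD8SP and 69.0% in CD4SP, at 1.10 and 1.02 summed FPKM). Just below it lay Wdr59 (17.0% in CD8SP and 17.2% in CD4SP, at 1.68 and 0.965 summed FPKM) and Oxr1 (0% in CD8SP and 14% in CD4SP, at 0.964 and 2.89 summed FPKM).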

How the data were processed

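RNA of sorted CD8SP and CD4SP thymocytes was sequenced as paired-end rRNA-depleted short reads and as PacBio long reads, per the labels' protocols. The submitters' processing notes name TopHat2 2.0.14, Cufflinks 2.1.1, GSNAP, RSEM 1.3.1, Trimmomatic, FastQC and GRCm38. The authors deposited, per file, FPKM with an interval for each transcript. No short-read counts were used. From these deposited FPKM values PSI was computed (Python 3.11.15, pandas 2.3.3). Of 26941 RefSeq identifiers, 26438 matched a symbol. GENCODE M21 gave exon number, coding region, frame and sequence. PSI bounds set one form at its lower and the other at its upper limit. Each file pools 4 lanes, so no test was made, and a call is a difference of at least 20 points. Named were: per direction the 12 largest calls with both forms above 0, at least 3 summed FPKM and separate bounds; genes with known T cell splicing; the 8 most abundant microexons; the 8 most abundant members; the 6 most abundant of even use; 2 members on each side of the minimum; and up to 4 calls per list. Others are said to be chosen after their values were seen. The members and lists were chosen with earlier results of these data known. PSI steps were tested on simulated data. The chained long-read table's TPM values and intron sequences were not used. Some items are not reported here.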

Additional observations from a re-analysis of the deposited data

How the results depend on the processing

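No p-value exists for any of these results, since each lineage has 1 file, and no depth is given. PSI inherits Cufflinks' division of reads among transcripts, and 5.37% of RefSeq multi-exon transcripts in CD8SP and 5.13% in CD4SP have an FPKM outside their own interval. No paired analysis was possible because each lineage has 1 file and its 4 lanes have no values of their own; leaving out a lane was not possible for the same reason. Of the 678 events 96 were called, 55 with CD8SP higher and 41 with CD4SP higher. Their median size over all events was 6.03 points. A minimum of 5 FPKM gave 30 calls (17 higher in CD8SP, 13 in CD4SP; median 5.17 points). No minimum gave 232 (125 and 107; 6.72), and 0.5 FPKM added to each form 66 (33 and 33; 5.27). RefSeq transcripts alone gave 77 (51 and 26; 3.44), leaving out transcripts outside their interval 121 (69 and 52; 7.0), and either intron 105 (50 and 55; 6.54). A threshold of 10 points gave 229 (122 and 107) and one of 30 points 44 (19 and 25). Leaving out events with a form at 0 gave 59 (37 and 22; 7.04), and 1 event per exon 92 (52 and 40; 6.01). Among the called exons that are named, differences that changed sign with RefSeq transcripts alone were those of Vrk1 (-38.4 points), Gtf2ird1 (-13.3), U2surp (2.17), Rnf138 (5.24), Ralgps2 (6.42), Sars (22.2), Zfp426 (29.9) and Ablim1 (40.2). Among named exons not called, Pum2 (19.2), Cd6 (3.66), Wnk1 (1.74), Tcf12 (3.36), Map4k4 (9 bases, 2.16) and Picalm (150 bases, -6.10) did too. Without transcripts outside their interval the called Ralgps2 (43.3) and Mon2 (39.1) changed sign, as did, not called, Ikzf1 (-58.3), Picalm (24 bases, 80.8) and Mbnl1 (54 bases, 3.67). With either intron Mbnl1 (54 bases, 10.2) and, in Map4k4, the exons of 162 and 231 bases (4.99 and 3.64) did. The cause was not tested. Adding 0.5 FPKM kept 63 of 65 named exons on the same side of the threshold.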

Other observations

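Of the 554 genes, 94 held more than 1 frame-keeping event, and exons of a single gene covered most of the PSI range. Wnk1 had 5: exons of 84, 285, 462, 1236 and 258 bases were at 60.3%, 40.1%, 20.03%, 8.94% and 0% in CD8SP, and at 63.8%, 52.4%, 12.8%, 11.0% and 0% in CD4SP. Clasp1, a microtubule plus-end protein gene, also had 5. Its exons of 48 and 24 bases were at 52.6% and 56.7% in CD8SP and at 47.6% and 59.9% in CD4SP, while those of 27, 108 and 117 bases were listed at 0 in both files. Spag9, a scaffold gene of stress kinase signalling, had 4 exons of 12 to 42 bases, none above 12.1% in either file. None of the events of these 3 genes was called, and the genes were chosen after their values were seen.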
